A study of Mus musculus with 6 samples.

Results

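The genes described here are 36 genes of glucose uptake, glycolysis, lactate and pyruvate handling, taken by name from a given list that was drawn up with earlier results of these data known. All 36 were among the 27998 gene rows of the count table, and 33 of them held enough counts to be tested. Their transcripts were counted cell by cell in testicular germ cells of mouse embryos at embryonic day 14.5. 3 samples were labelled wildtype (control), and 3 carried a conditional knockout (cKO) of Rb1, the retinoblastoma gene, whose protein restrains entry into the cell cycle. All 6 samples came from male embryos on a mixed C57/B6 and 129 background, and cells were sorted for tdTomato, a red fluorescent protein, in both genotypes. The labels give neither the deleted exon of Rb1 nor the Cre driver, and they do not say whether samples of a group are different animals or litters. The p-values therefore cover the variation among these 6 samples alone, and this may be technical.

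Glycolysis splits glucose into pyruvate in the cytosol and yields ATP without oxygen. Transporters carry glucose in, hexokinase traps it, phosphofructokinase sets much of the flux, and pyruvate kinase closes the path. Pyruvate is then either reduced to lactate by lactate dehydrogenase or carried into mitochondria and turned into acetyl-CoA by the pyruvate dehydrogenase complex, which pyruvate dehydrogenase kinases switch off. Many steps have several isozymes from separate genes, whose use differs between tissues. Somatic Sertoli cells are known to supply lactate to germ cells in the postnatal testis.

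Levels are given as CPM, a gene's count scaled to a total, from unique molecular identifiers (UMIs, each marking 1 captured transcript), summed over the cells of a sample. For single genes over all cells, the total was the library's total multiplied by its edgeR scaling factor (TMM). This factor ran from 0.965 in control 3 to 1.03 in cKO 1. Sums over gene lists, values within clusters and the limit given for Eno2 used the plain total. All-cell and cluster values of a gene are therefore not on one scale. The chemistry reads the 3' end of each transcript, so CPM was not divided by gene length, and sums or shares over isozymes assume that each gene's ends were captured alike. The 5154 cells kept gave 7598511 to 17323152 UMIs per sample, with a median of 12749 to 17602 UMIs per cell. The libraries shared 9 barcode sequences. The 10 germ cell markers summed to 8726 to 9601 CPM in controls and 8583 to 9469 CPM in cKO, and all 10 had UMIs in every library. Sertoli cell markers summed to 29.3 CPM in control 3 and to 6.84 to 13.3 CPM in the other 5 libraries, with 6 of 7 markers seen in every library. The 3 interstitial, myoid and macrophage lists stayed under 10.0 CPM in each library. Endothelial markers summed to 44.0 to 69.6 CPM, Leydig cell markers to 50.7 to 63.1 CPM with Hsd3b1 and Insl3 at 0, and erythroid markers to 6.15 to 33.4 CPM. The epithelial list summed to 363 to 478 CPM, with Upk3b at 0.

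Rb1, the targeted gene, had 10.3, 8.65 and 7.13 CPM in controls against 3.35, 3.73 and 3.65 CPM in cKO. Every cKO sample lay below every control, with a log2 fold change of -1.27 ± 0.19 (SE) and an edgeR adjusted p of 0.416. The adjusted p was 0.0479 with DESeq2, 0.0181 with edgeR and no low-count filter and 0.0422 with edgeR without control 3, and 0.337 to 0.9998 in the other 11 alternatives. A 3' tag can still be counted from a transcript that lacks an internal exon, so the remaining counts do not measure how many cells lost the gene.

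3 promoters are shown because they belong to the lactate dehydrogenase genes Ldha and Ldhb, whose counts were far apart, and to Pgk1, the member with the highest positive fold change. Each is the 250 bases before a RefSeq transcription start on GRCm38.p6, with matches to ACGTG on either strand in capitals. ACGTG is the core of the hypoxia response element, read as CACGT on the other strand, and CACGTG holds both overlapping. The Ldha window is the first of 2 starts that RefSeq lists, and lies in an intron of a longer GENCODE transcript.
Ldha chr7:46845554-46845803 (+ strand): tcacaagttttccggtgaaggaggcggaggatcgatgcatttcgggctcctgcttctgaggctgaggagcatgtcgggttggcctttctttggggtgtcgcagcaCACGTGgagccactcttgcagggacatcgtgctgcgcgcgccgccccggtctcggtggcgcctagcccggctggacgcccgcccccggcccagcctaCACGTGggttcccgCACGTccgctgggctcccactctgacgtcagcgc
Ldhb chr6:142507958-142508207 (- strand): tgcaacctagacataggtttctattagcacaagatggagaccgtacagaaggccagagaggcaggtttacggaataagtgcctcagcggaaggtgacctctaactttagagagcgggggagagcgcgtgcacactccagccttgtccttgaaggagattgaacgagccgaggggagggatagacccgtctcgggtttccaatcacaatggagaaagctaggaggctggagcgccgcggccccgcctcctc
Pgk1 chrX:106186850-106187099 (+ strand): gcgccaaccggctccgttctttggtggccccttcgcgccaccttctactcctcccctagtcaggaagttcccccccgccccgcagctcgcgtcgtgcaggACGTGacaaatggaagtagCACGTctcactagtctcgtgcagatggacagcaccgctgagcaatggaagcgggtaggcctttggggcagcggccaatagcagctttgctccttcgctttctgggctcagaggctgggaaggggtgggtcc
The Ldha window held 3 capital stretches, the Pgk1 window 2 and the Ldhb window 0. Of 35 members matched to a RefSeq window, 13 (37.1%) held ACGTG on either strand, beside 16.6% of the first windows of 27025 genes. Those genes were not matched to the members in expression or base composition, and the part of either was not tested. The E2F site GGCGGGAA, searched on both strands because Rb1 protein binds E2F factors, was found in 1 of the 35 members, the lactate carrier gene Slc16a1, and in 1.88% of all first windows. These windows ran from 250 bases before to 50 bases after each start. A match is a stretch of letters only, and no binding was measured.

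In each of the 6 libraries Pkm (pyruvate kinase) and Gapdh (glyceraldehyde-3-phosphate dehydrogenase) had more UMIs than any other member, and together with Ldhb, Aldoa and Pgam1 these 5 genes held 74.5% of all member UMIs. The summed CPM of the members was 5571, 5648 and 5021 in controls against 5992, 5525 and 4806 in cKO. The groups overlapped, at 5414 ± 342 (SD, n = 3) against 5441 ± 597 (SD, n = 3).

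**Figure D1:**
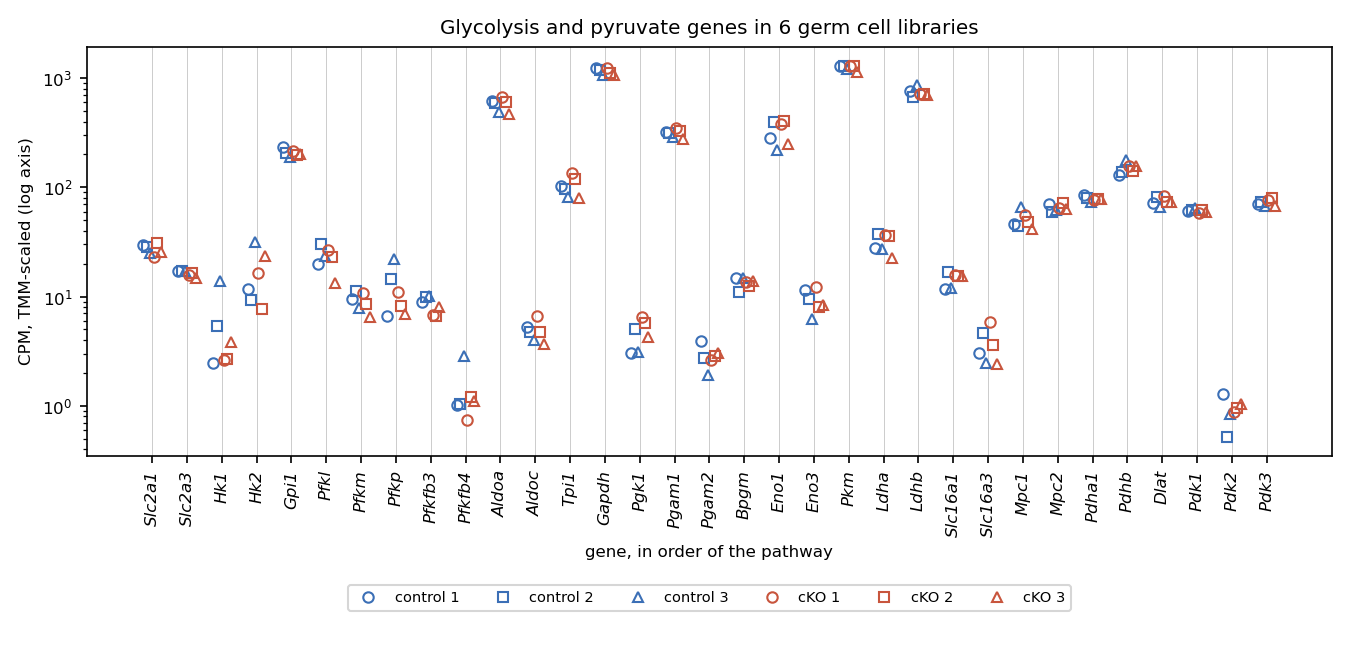
CPM of the 33 tested genes (log axis) in each of the 6 libraries, in pathway order, with controls in blue and cKO in red and replicate numbers 1, 2 and 3 as circles, squares and triangles. Pkm, Gapdh, Ldhb and Aldoa lead in every library, and controls and cKO samples overlap for all but Slc2a3 and Pfkfb3.

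No member differed between the genotypes at an edgeR adjusted p under 0.05, and the same held for all 11540 genes tested (0% called). Member adjusted p-values ran from 0.994 to 0.998. At an unadjusted p under 0.05 the count was 1 of 33 members and 405 genes in all (3.51%). DESeq2 called 3 genes and no member. 16 members had a positive and 17 a negative log2 fold change, with a median of -0.02 beside 0.00 for all genes. The 95% interval of the fold change lay within 1.5-fold either way for 18 members, among them Pkm, Gapdh, Aldoa, Pgam1, Gpi1, Ldha and Ldhb. For the other 15 this depth and number of samples left changes of 1.5-fold or more inside the interval.

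**Figure D2:**
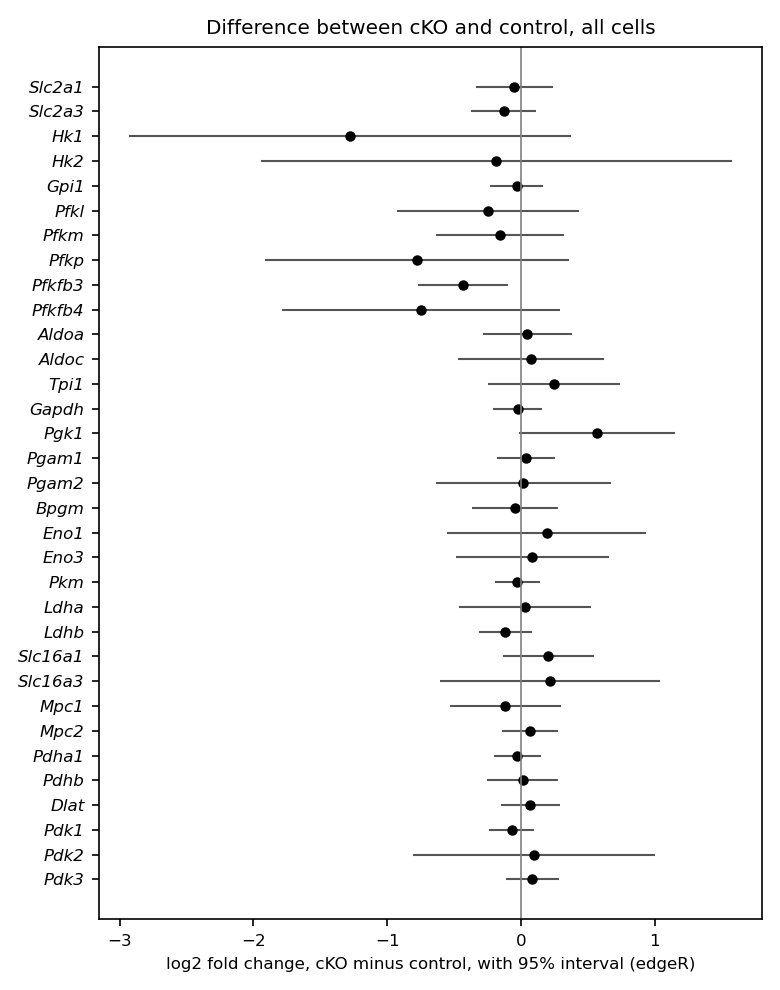
Log2 fold change (cKO minus control, all cells) of the 33 tested genes with 95% intervals from edgeR. Intervals are narrow for the abundant enzymes such as Pkm and Gapdh and wide for Hk1, Hk2 and Pfkp, and the interval of Pfkfb3 alone excludes 0 before adjustment for multiple testing.

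Both glucose transporters were detected. Slc2a1 (GLUT1) had 29.5, 28.5 and 24.8 CPM in controls against 22.9, 31.0 and 25.6 CPM in cKO, so the groups overlapped. Slc2a3 (GLUT3, a transporter of high affinity) had 17.3, 17.1 and 17.1 CPM in controls against 15.8, 16.6 and 14.8 CPM in cKO. Its cKO samples all lay below the controls, by a log2 fold change of -0.13 ± 0.11 (SE; edgeR adjusted p = 0.994). 2 members, Slc2a3 and Pfkfb3, had every cKO sample below every control, while 4.23% of all tested genes did. 0 members had every cKO sample above every control, while 4.71% of genes did. Slc2a1 made up 59.1% to 65.2% of the UMIs of both transporters.

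Hexokinase genes varied widely between libraries of the same genotype. Hk2, the isozyme common in fetal and proliferating cells, had 11.7, 9.30 and 31.7 CPM in controls against 16.3, 7.61 and 23.6 CPM in cKO. Its highest values were in the libraries control 3 and cKO 3. Hk1, the isozyme of most adult tissues, had 2.47, 5.42 and 13.9 CPM in controls against 2.61, 2.70 and 3.83 CPM in cKO. Its log2 fold change of -1.27 ± 0.66 (SE; edgeR adjusted p = 0.994) was -0.30 without control 3, while that of Hk2 went from -0.18 to 0.59. Hk2 made up 63.2% to 86.2% of the UMIs of the pair.

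Gpi1, which converts glucose-6-phosphate to fructose-6-phosphate, had 233, 207 and 188 CPM in controls against 216, 198 and 201 CPM in cKO. The ranges overlapped, and the interval of the ratio ran from 0.854 to 1.12. The subunits of phosphofructokinase follow, of which Pfkl held 44.1% to 57.9% of the UMIs. Pfkl had 19.9, 30.1 and 23.7 CPM in controls against 26.5, 22.9 and 13.2 CPM in cKO. Pfkp had 6.68, 14.6 and 22.2 CPM in controls against 10.9, 8.16 and 6.93 CPM in cKO. Its share of the subunits' UMIs was 41.3% in control 3 and 18.6% to 26.1% in the other 5 libraries. The log2 fold change of Pfkp was -0.78 ± 0.46 (SE; edgeR adjusted p = 0.994), and -0.29 without control 3. Pfkm, the muscle form, had a mean of 9.50 ± 1.69 CPM in the controls and 8.57 ± 2.18 CPM in cKO (SD, n = 3 each).

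Pfkfb3 makes fructose-2,6-bisphosphate, a strong activator of phosphofructokinase, and was the one member that passed the unadjusted threshold. It had 8.96, 9.94 and 10.1 CPM in controls against 6.71, 6.66 and 8.02 CPM in cKO, so the groups did not overlap. The log2 fold change was -0.43 ± 0.15 (SE), between -0.53 and -0.38 when each library was left out in turn. Its edgeR adjusted p was 0.994, and 0.568 was the lowest over the alternatives. Pfkfb4, another enzyme of the same reaction, had 1.01, 1.03 and 2.88 CPM in controls against 0.745, 1.19 and 1.09 CPM in cKO. Its log2 fold change went from -0.75 to 0.03 without control 3. Pfkfb2 had 21 UMIs in all and was not tested.

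Aldoa, the aldolase that splits fructose-1,6-bisphosphate, had 623, 588 and 490 CPM in controls against 677, 605 and 474 CPM in cKO. It held 99.0% to 99.2% of the UMIs of Aldoa and Aldoc. Tpi1, which interconverts the triose phosphates, had 102, 97.2 and 81.7 CPM in controls against 136, 119 and 79.5 CPM in cKO. The 2 highest values of Tpi1 were cKO samples, but cKO 3 was the lowest of all 6, and the log2 fold change was 0.25 ± 0.20 (SE; edgeR adjusted p = 0.994).

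Gapdh had 1230, 1193 and 1072 CPM in controls against 1247, 1118 and 1070 CPM in cKO. The last 500 bases of its transcripts had near-identical copies in 64 other annotated genes, 61 of them pseudogenes, so its count depends on how the authors treated reads with several matches. Pgk1, phosphoglycerate kinase and the first ATP-yielding step, was counted at only 3.02, 5.04 and 3.12 CPM in controls against 6.46, 5.71 and 4.25 CPM in cKO. Its log2 fold change of 0.57 ± 0.26 (SE) was the highest of the members, with an edgeR adjusted p of 0.994. Control 2 lay above cKO 3, so the groups overlapped. The retrogene Pgk1-rs7 had 26 UMIs over all libraries.

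Pgam1, phosphoglycerate mutase, had 324, 316 and 287 CPM in controls against 352, 325 and 276 CPM in cKO. The muscle form Pgam2 and the red cell enzyme Bpgm were low, with means of 2.84 and 13.4 CPM over the 6 libraries. Eno1, the broadly expressed enolase, had 286, 399 and 222 CPM in controls against 379, 405 and 250 CPM in cKO. Both replicate 3 libraries were the lowest, and the log2 fold change was 0.19 ± 0.29 (SE; edgeR adjusted p = 0.994). Eno1 held 96.2% to 98.0% of enolase UMIs. Its near-identical copy Eno1b was counted apart at 2.98 to 5.81 CPM, and reads of the pair may have been split. The neuronal enolase gene Eno2 had 0 UMIs in all libraries, where 3 counts would be 0.0411 CPM, a limit for counting error only.

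Pkm had 1290, 1305 and 1205 CPM in controls against 1304, 1281 and 1140 CPM in cKO. The interval of the ratio ran from 0.872 to 1.10. The 3' tags do not separate its splice forms. Ldhb, the lactate dehydrogenase subunit typical of heart, had 764, 677 and 860 CPM in controls against 711, 714 and 698 CPM in cKO. Its control libraries lay on both sides of the cKO libraries, with a log2 fold change of -0.12 ± 0.09 (SE; edgeR adjusted p = 0.994). Ldha, the subunit typical of muscle and a hypoxia target, had 28.0, 37.6 and 27.5 CPM in controls against 36.4, 36.0 and 22.7 CPM in cKO. Ldhb held 94.7% to 96.9% of the UMIs of the pair in each of the 6 libraries.

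The lactate carrier Slc16a1 (MCT1) had 11.8, 16.8 and 12.1 CPM in controls against 15.8, 15.3 and 15.4 CPM in cKO. Slc16a3 (MCT4), a carrier of strongly glycolytic cells, had a mean of 3.38 ± 1.14 CPM in the controls and 3.94 ± 1.73 CPM in cKO (SD, n = 3 each). Neither carrier separated the genotypes.

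Of the mitochondrial pyruvate carrier, Mpc1 had 46.5, 44.2 and 66.3 CPM in controls against 56.3, 48.0 and 41.8 CPM in cKO, and Mpc2 had 63.8 ± 5.52 CPM against 66.9 ± 4.95 CPM (SD, n = 3 each). The pyruvate dehydrogenase genes Pdha1, Pdhb and Dlat had 79.1 ± 5.54, 150 ± 25.9 and 73.3 ± 7.97 CPM in the controls (SD, n = 3 each). In cKO they had 77.7 ± 1.23, 151 ± 8.75 and 76.9 ± 5.74 CPM (SD, n = 3 each), all overlapping. Pdk1 and Pdk3, kinases that inhibit the complex, had 62.6 ± 1.5 and 70.8 ± 2.99 CPM in the controls, and 59.8 ± 2.03 and 75.1 ± 6.47 CPM in cKO (SD, n = 3 each). Pdk3 held 50.7% to 56.2% of the UMIs of the kinase genes Pdk1 to Pdk4 and Pdk1 held 42.7% to 47.8%. Pdk2 and Pdk4 had 68 and 56 UMIs in all, and Pdk4 was not tested. The transcript ends of Pdha1, Mpc1 and Pfkp share sequence with overlapping or neighbouring genes, and the strand setting of the counting is not given in the sources used here, so these 3 counts are uncertain. Ldhb and Pdhb each had 1 pseudogene with a near-identical end.

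Several members had shared highs or lows in the replicate 3 libraries. Both replicate 3 libraries were the 2 lowest for 11 of 33 members: Pfkm, Aldoa, Aldoc, Tpi1, Gapdh, Pgam1, Eno1, Pkm, Ldha, Slc16a3 and Pdk3. Over all tested genes 8.46% had this order. They were the 2 highest for 1 member, Hk2, beside 12% of genes. These 2 libraries also held the most cells, 1354 and 1164, against 430 to 945 in the others. Within cluster 0 of the authors' clustering, the largest, Aldoa had 486 and 497 CPM in these 2 libraries and 618 to 728 CPM in the other 4. Within cluster 1 the same gene had 455 and 444 CPM there and 542 to 672 CPM in the other 4. Among members with a mean of at least 10 CPM, 3 of 23 (Hk2, Pfkl and Pfkp) spanned at least 2-fold between their highest and lowest library, as did 4.76% of all genes at that level.

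Control 3 was the highest of the 6 libraries for 9 of 33 members (Hk1, Hk2, Pfkp, Pfkfb3, Pfkfb4, Ldhb, Mpc1, Pdhb and Pdk1), beside 24.2% of all tested genes. In cluster 0 it had 17.1 CPM of Hk1 against 1.67 to 6.41 CPM in the others, and 24.6 CPM of Pfkp against 7.09 to 14.7 CPM. In cluster 1 it had 10.3 CPM of Hk1 against 2.17 to 5.34 CPM. Control 3 also had the highest sums of Sertoli cell (29.3 CPM), endothelial (69.6 CPM), macrophage (8.49 CPM) and germ cell (9601 CPM) markers. Its sums of Leydig cell (50.7 CPM) and epithelial (363 CPM) markers were the lowest. For the interstitial, myoid and erythroid lists another library was the highest. In the other 5 libraries the endothelial sum was at most 59.4 CPM and the macrophage sum at most 5.85 CPM. The part of these cells, or of cell number, in the library differences was not tested.

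**Figure D3:**
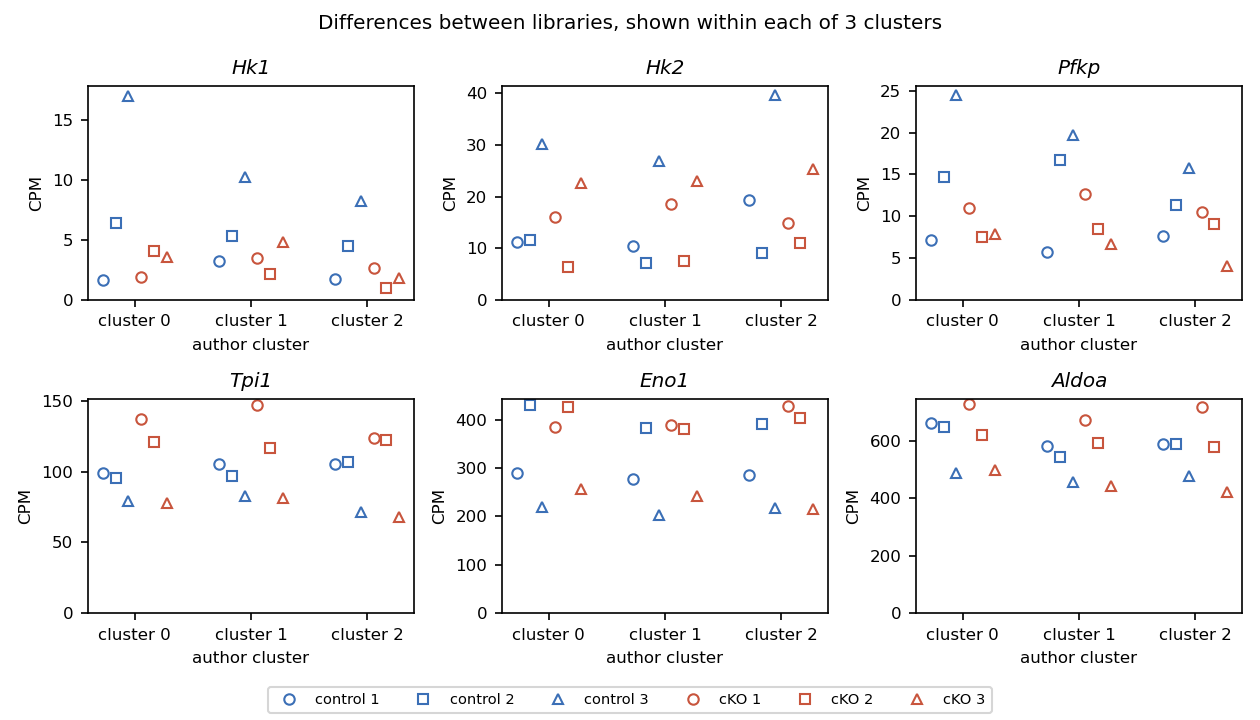
CPM of 6 members within author clusters 0, 1 and 2 (linear axes from 0), 1 point per library, controls in blue, cKO in red, replicates 1, 2 and 3 as circles, squares and triangles. In each of the 3 clusters the triangles of replicate 3 lie lowest for Aldoa, Tpi1 and Eno1, and the blue triangle of control 3 lies highest for Hk1, Hk2 and Pfkp.

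The authors assigned the cells to 5 numbered clusters, without cell type names, of 2210, 1863, 640, 343 and 98 kept cells for clusters 0 to 4. Leading genes were Stra8, Tcf19 and Ccne1 (cyclin E1) in cluster 0, Cdc20, Ccnb1 (cyclin B1) and Hmmr in cluster 1, and linker and core histones in cluster 2. Pf4 and Rpgrip1 led cluster 3, and Mgarp and Phlda3 led cluster 4. The clusters were made from these same cells and genes, so levels between them are a description with no test.

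Summed member CPM was 5574 ± 450 in cluster 0, 5268 ± 392 in cluster 1, 5350 ± 541 in cluster 2, 5497 ± 477 in cluster 3 and 5392 ± 485 in cluster 4 (SD, n = 6 samples each). Compared within a sample, the sum was lower than in cluster 0 in 6 of 6 samples for clusters 1 and 2, in 4 of 6 for cluster 3 and in 5 of 6 for cluster 4. 7 of 32 members lay lower in cluster 1 than in cluster 0 of the same sample in all 6 samples, while 13.6% of all genes did. They were Aldoa, Gapdh, Pkm, Ldhb, Slc16a3, Pdhb and Pdk3. The steps were small for the abundant enzymes, with means of 606 against 547 CPM for Aldoa, 1201 against 1109 CPM for Gapdh and 1287 against 1213 CPM for Pkm. Slc16a3 went from 4.83 to 1.80 CPM, on only 134 and 44 UMIs over the 6 samples. Its ratio within a sample ran from 0.18 to 0.81. Mpc1 was the 1 member higher in cluster 1 in all 6 samples, at 55.2 against 47.6 CPM, while 14.4% of genes were.

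Cluster 2 had 4 of 30 members below cluster 0 in all 6 samples (Pfkm, Aldoa, Gapdh and Pdk3), beside 10.6% of genes, and 0 above, beside 10.1% of genes. With library sizes scaled jointly over clusters, Pdk3 left that group. In cluster 3, Pdhb and Pdk3 of 25 members lay below cluster 0 in all samples (3.57% of genes) and Tpi1 above (4.4% of genes). Without cKO 2 the members below numbered 5, and without control 2 they numbered 3. The members above numbered 2 without control 2 or without cKO 3. Fewer samples had to agree for these counts, so the shares of genes over all 6 samples are not their comparison. The Ldha level of cluster 3 in control 2, 99.8 CPM, rested on 2 cells with 29 and 14 of 62 UMIs, and was 32.2 CPM without them.

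**Figure D4:**
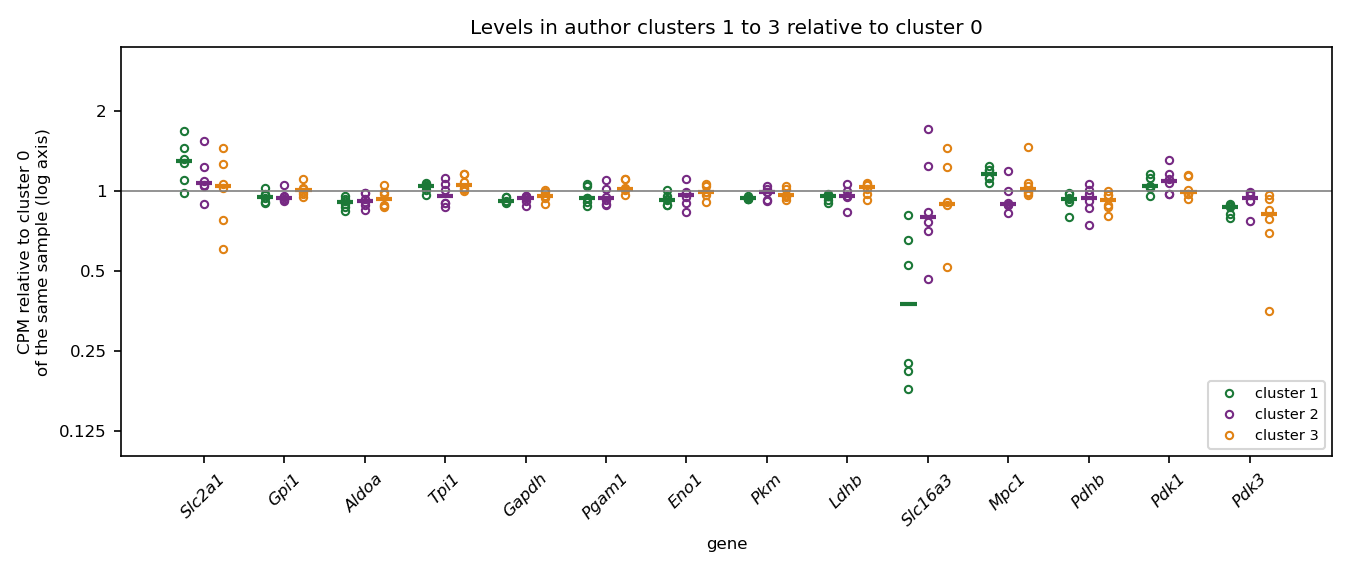
Ratio of each gene's CPM in author cluster 1, 2 or 3 to its CPM in cluster 0 of the same sample (log axis), 1 circle per sample and a bar at the median of the 6 samples. Slc16a3 had 0 CPM in cluster 3 of control 3, which has no circle on the log axis but enters the median. Most enzymes lie close to a ratio of 1, and Slc16a3 lies lowest in cluster 1, where it had 44 UMIs.

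Genotypes were then compared within each cluster. No member and no gene passed an edgeR adjusted p under 0.05 in any of the 5 clusters, in which 31, 30, 26, 20 and 13 members were tested. At an unadjusted p under 0.05, cluster 0 had 2 members (3.88% of all genes tested there) and cluster 4 had 1 (3.95%). Clusters 1, 2 and 3 had 0 members, beside 3.37%, 4.04% and 3.37% of genes. The median member log2 fold change lay between -0.07 in cluster 4 and 0.03 in cluster 2.

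The 2 members in cluster 0 were Pgk1 and Slc16a1. Pgk1 had 2.5, 4.8 and 3.56 CPM there in controls against 7.72, 6.51 and 5.64 CPM in cKO, with a log2 fold change of 0.86 ± 0.28 (SE; edgeR adjusted p = 0.9995). Its genotypes did not overlap in cluster 0, but did in cluster 1, at 3.69, 4.27 and 1.87 CPM against 4.57, 5.30 and 3.32 CPM. Over all cells 4.71% of genes had every cKO sample above every control, and no such share is given for cluster 0. Pgk1 was picked by its unadjusted edgeR p in cluster 0, so this order adds no separate support. Pgk1 had 42, 16 and 12 UMIs in clusters 2, 3 and 4, and was not tested there. Its means in those clusters were 4.97, 4.19 and 7.53 CPM in controls against 4.41, 4.15 and 16.8 CPM in cKO. Slc16a1 had 10.2, 15.7 and 11.3 CPM in controls against 19.6, 16.9 and 14.3 CPM in cKO in cluster 0 (log2 fold change 0.44 ± 0.19, SE; edgeR adjusted p = 0.9995). The member in cluster 4 was Mpc1, at 70.8 ± 25.3 CPM in the controls against 39.2 ± 12.7 CPM in cKO (SD, n = 3 each), from 74 UMIs in all 6 samples.

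Whether the genotype difference itself differed between a cluster and cluster 0 was tested with limma over samples, and 0 genes and 0 members were called for each of clusters 1 to 4. At an unadjusted p under 0.05 the counts were 1 of 30 members for cluster 1 (Hk2, 4.83% of genes), 1 of 26 for cluster 2 (Pdha1, 4.93%), and 0 members for clusters 3 (3.99%) and 4 (4.1%). For Hk2 the difference of log2 fold changes was 0.47 ± 0.21 (SE; limma adjusted p = 0.993), and for Pdha1 it was -0.29 ± 0.13 (SE; limma adjusted p = 0.954).

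Genes around the pathway were read from the same all-cell fit, in which no gene passed an edgeR adjusted p under 0.05. The 6 neighbouring lists could therefore hold no call, and their values are a description. Other isozymes and carriers had 7 tested genes, 3 with a positive log2 fold change and a median of -0.08, and Hk3, Aldoart2, Gapdhs and Pgk2 had 0 UMIs. Bsg (basigin), the partner that brings lactate carriers to the membrane, had 416, 439 and 426 CPM in controls against 414, 404 and 398 CPM in cKO. It was the 1 of these 7 genes whose groups did not overlap, with every cKO sample below every control, as had 4.23% of all genes. The log2 fold change of Bsg was -0.08 ± 0.06 (SE; edgeR adjusted p = 0.994).

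The pentose phosphate list had 8 tested genes, 3 positive, with a median of -0.06. Rpia, ribose-5-phosphate isomerase, had 34.3 ± 4.62 CPM in the controls and 28.4 ± 2.78 CPM in cKO (SD, n = 3 each). Its groups overlapped, with a log2 fold change of -0.27 ± 0.12 (SE; edgeR adjusted p = 0.994). The rest of pyruvate handling had 9 tested genes, 6 positive, with a median of 0.03. The citrate cycle had 16 tested genes, 7 positive, with a median of -0.01, and 2 of the 16 (Idh3b and Sdhd) had every cKO sample below every control, as had 4.23% of all genes. Idh3b, a subunit of mitochondrial isocitrate dehydrogenase, had 69.9, 73.4 and 73.4 CPM in controls against 67.3, 68.5 and 67.7 CPM in cKO. Sdhd, a membrane anchor of succinate dehydrogenase, had 104, 112 and 104 CPM in controls against 90.4, 87.4 and 90.03 CPM in cKO. Its log2 fold change was -0.25 ± 0.07 (SE; edgeR adjusted p = 0.994).

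Regulators of glycolysis had 13 tested genes, 3 positive, with a median of -0.12, and the hypoxia list had 10, 4 positive, with a median of -0.05. Hif1a, the oxygen-regulated subunit of the hypoxia-inducible factor, had 44.9 ± 4.49 CPM in the controls and 44.9 ± 2.66 CPM in cKO (SD, n = 3 each). Egln1, the prolyl hydroxylase that marks it for destruction, had 9.15, 7.62 and 10.6 CPM in controls against 12.5, 11.4 and 11.5 CPM in cKO, with a log2 fold change of 0.35 ± 0.15 (SE; edgeR adjusted p = 0.994). It was the 1 of the 13 regulators whose cKO samples all lay above the controls, an order that 4.71% of all genes had.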

How the data were processed

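The authors deposited a table of whole-number UMI counts per gene and cell barcode, with a table of each barcode's sample and cluster. Cell Ranger, Seurat 3.0 and the build mm10 are named, per the submitters' processing notes. Parameters, annotation release and strand setting are not given in the sources used here. Kept cells held 500 genes or more and a mitochondrial share below 10% of UMIs (6 of 5160 barcodes removed). Scrublet called 160 doublets, which were kept in the main results.

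Counts were summed per sample, over all cells or within an author cluster, and tested with edgeR 4.0.16 (filterByExpr, TMM scaling, robust quasi-likelihood test, two-sided) with Benjamini-Hochberg adjustment over all genes tested. The difference of genotype effects between clusters was tested with limma 3.58.1 on per-sample differences of log2 CPM (prior count 2). Its first form fitted the variance trend over the mean difference between clusters and recovered none of the genes changed in simulated data. The trend was therefore fitted over the mean level of both clusters. The first form had been run on the real counts, and is kept as an alternative. The edgeR fits were also run on simulated data. Those simulations changed only well-counted genes and gave all genes the same spread, so they do not cover members with low or widely varying counts.

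Directions between clusters were read for genes with at least 30 UMIs in both. Coordinates come from GENCODE M21 (GRCm38) and promoters from RefSeq. Transcript ends (500 bases) were compared by BLAST 2.17.0, with copies of at least 90 bases and 97% identity. Alternatives were DESeq2 1.42.0, RLE factors, no low-count filter, all barcodes, doublets removed, equal cell numbers (430 per sample), 3 clusters only, a replicate block and leaving out each library. Members and related lists were chosen with earlier results of these data known. Values are given for every member whose groups did not overlap, the highest members and 1 main isozyme of each step. Other genes with values, among them Hk1, Pfkp, Pgk1 and those of the related lists, were chosen after their values were seen.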

Additional observations from a re-analysis of the deposited data

How the results depend on the processing

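No member was called in any of the 14 alternatives of the all-cell comparison. The lowest member adjusted p over them was 0.533 (edgeR, without control 1). Over all genes DESeq2 called 3, the fit with no low-count filter called 6, and leaving out 1 library gave 0 to 4, the 4 without control 3. The median member log2 fold change ran from -0.07 (without cKO 1) to 0.02 when each library was left out. Members with a positive value numbered 10 (without cKO 1) to 19 (without control 1). Of 460 member values over the alternatives, 42 changed sign, in 22 members; the cause was not tested. With equal cell numbers the log2 fold change was 0.13 for Bpgm, -0.0021 for Dlat and 0.0043 for Pdk1, and with doublets removed -0.031 for Pgam2 and -0.0037 for Pdhb. Leaving out each library gave log2 fold changes of Slc2a1 -0.18 to 0.038, Hk2 -0.62 to 0.59, Gpi1 -0.10 to 0.055, Pfkl -0.44 to 0.012, Pfkm -0.34 to 0.026, Pfkfb4 -1.01 to 0.027, Aldoa -0.07 to 0.18, Aldoc -0.15 to 0.26, Gapdh -0.091 to 0.022, Pgam1 -0.042 to 0.13. For the other members that changed sign the ranges were Pgam2 -0.24 to 0.35, Bpgm -0.16 to 0.018, Eno3 -0.16 to 0.31, Pkm -0.065 to 0.029, Ldha -0.078 to 0.23, Slc16a3 -0.14 to 0.50, Mpc1 -0.23 to 0.096, Pdha1 -0.077 to 0.026, Pdhb -0.072 to 0.17, Pdk2 -0.11 to 0.42. Within clusters 0 to 3 the fit with no low-count filter called 15, 8, 3 and 17 genes, none a member. Leaving out each library gave 0 to 2 genes in each of clusters 0, 1 and 2, 0 to 3 in cluster 3 and 0 to 1 in cluster 4, the highest without control 3 or, in cluster 3, without control 1. For the difference of effects, leaving out each library gave 0 to 1 gene for each of clusters 1, 2 and 3 (1 without control 1 or cKO 1, without control 1, and without control 3), and the variance trend over the mean difference gave 0 throughout. With 1 library left out (for these counts, chosen after seeing the data), members higher than in cluster 0 in every sample numbered 1 to 3 for cluster 1 (3 without cKO 1 or cKO 2), 0 to 1 for cluster 2 (1 without cKO 1) and 1 to 2 for cluster 3. The members lower numbered 7 to 9, 4 to 5 and 2 to 5. Fewer samples had to agree for these counts than for the shares of all genes given earlier, so those shares are not their comparison.

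With the replicate number as a replicate block, 0 genes were called over all cells (505 at an unadjusted edgeR p under 0.05), 1 gene within cluster 3 and 1 for the difference of effects in cluster 1, none a member. The deviations of same-numbered libraries from their group means correlated at -0.13, 0.23 and 0.20 across genes for replicates 1, 2 and 3, so the numbers were not taken as pairs. Depth limits the low members: Pgk1, Slc16a3, Pdk2 and Pfkfb4 had 318, 242, 68 and 106 UMIs over all 6 libraries.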
